A study of Homo sapiens with 11 samples.

Results

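The cyclin D, CDK and RB genes are 10 genes that govern the passage from G1 into S phase, namely CCND1, CCND2, CCND3, CDK4, CDK6, CDK2, CCNE1, CDKN1B, RB1 and E2F1. They were chosen by name, because CCND1 is a reported target of miR-365a and the others act beside it. Earlier results of these data were known when they were chosen. All 10 were found among the 31325 gene rows. mRNA was measured on 11 Illumina BeadChip arrays. A mimic of miR-365a-3p, or else a control miRNA, was introduced by transfection into 2 established human lines, the breast cancer line MDA-MB-231 and the ovarian cancer line SKOV3, which the study's text names as its derivative SKOV3.ip1. The 4 groups were MDA-MB-231 control (3 arrays), MDA-MB-231 miR-365a-3p (3 arrays), SKOV3 control (2 arrays) and SKOV3 miR-365a-3p (3 arrays). The labels put all groups at 48 h of treatment and the series' design text gives 24 h, and every sample, control included, was a transfected culture of a tumour line. Nothing in the labels says that replicates came from separate cultures, so p-values measure only the spread between these arrays, which may be technical.

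D-type cyclins bind CDK4 or CDK6 early in G1 and the complexes phosphorylate the retinoblastoma protein, the product of RB1. Unphosphorylated retinoblastoma protein holds E2F transcription factors in check, and its phosphorylation lets E2F1 and its relatives switch on cyclin E and the genes of DNA replication. Cyclin E with CDK2 extends that phosphorylation, and p27, the product of CDKN1B, inhibits cyclin E-CDK2 complexes. Cyclin D1 is frequently overexpressed in breast cancer, and loss of retinoblastoma function is a common route out of G1 control in tumours.

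The mature miRNA of the mimic is shown because its seed, bases 2 to 8 and here in capitals, is the stretch that chiefly sets which mRNAs a miRNA pairs with. Both sequences are from RefSeq on GRCh38.p14. The first is encoded at chr16:14309340-14309361 on the plus strand and the second at chr17:31575478-31575499 on the plus strand.
hsa-miR-365a-3p: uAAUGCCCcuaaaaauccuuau
hsa-miR-365b-3p: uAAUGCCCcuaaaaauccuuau
The 2 mature miRNAs were identical over all 22 bases, and the sequence listed for the mimic in the study's miRNA library was the same. Of 2545 mature entries in the table, only these 2 names carried the seed AAUGCCC, whose complement in an mRNA, written as DNA, is GGGCATT. Sites in the mRNAs of the 10 genes were not searched, since no transcript sequences were used here.

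Values are log2 expression after quantile normalization across the 11 arrays, one row for each gene. The lower part of each array is a floor at which unexpressed genes lie, and rows up to 7.43, the 60th percentile, are called the floor band here. A gene fell or rose where its adjusted p in limma, taken over all 31325 rows, was under 0.05. Of 6 genes listed as SKOV3 markers, ERBB2, PAX8, EPCAM and KRT8 were higher in SKOV3 controls (10.86, 8.18, 10.36 and 10.20) than in MDA-MB-231 controls (7.61, 7.40, 7.63 and 9.20), KRT18 was not (7.90 against 8.01), and ESRP1 (deposited as RBM35A) was in the floor band on all arrays. Of 6 listed as MDA-MB-231 markers, 3 were higher in MDA-MB-231 controls, VIM (13.79 against 13.70), ZEB1 (7.66 against 7.43) and AXL (12.84 against 11.59), and 3 were higher in SKOV3 controls, MSN (10.60 against 10.05), CAV1 (12.36 against 12.07) and SPARC (8.52 against 7.29). Leukocyte, endothelial and stromal markers lay in or next to the floor band, except for LUM, which averaged 7.33 in control and 7.83 in miR-365a-3p arrays of MDA-MB-231 cells and 7.45 and 8.17 in SKOV3 cells. The upper quartile of the deposited values was lower on miR-365a-3p arrays, with 7.62 ± 0.051 (SD, n = 3) against 7.91 ± 0.037 (n = 3) in MDA-MB-231 cells and 7.74 ± 0.065 (n = 3) against 8.01 ± 0.043 (n = 2) in SKOV3 cells (two-sided exact permutation p = 0.005, the smallest that 200 arrangements can give). The part of this shift in any result was not tested, and each call of the 10 genes within a cell line that the scaling changes is given both ways.

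In MDA-MB-231 cells, 5 of the 10 genes fell after miR-365a-3p, the 3 D-type cyclins, CDK6 and RB1, and 3 rose, CDK4, CDKN1B and E2F1. In SKOV3 cells CDK6 fell, CDK4 and CDKN1B rose, and 7 did not pass the test. Over all rows 11.7% fell and 14.4% rose in MDA-MB-231 cells, and 7.11% fell and 7.25% rose in SKOV3 cells. Of the 10 genes 50% fell and 30% rose in MDA-MB-231 cells, and 10% fell and 20% rose in SKOV3 cells. Many more rows passed among the 6853 with a mean above 8, where 26.2% fell and 39% rose in MDA-MB-231 cells and 15.3% fell and 23.4% rose in SKOV3 cells. Against these the counts of the 10 genes were close to the background in SKOV3 cells and, for genes that rose, in MDA-MB-231 cells. CCND2, CCNE1, RB1 and E2F1 do not have a mean above 8, so these rows are not a matched background for all 10. CDK6 was the 1 gene of the 10 that fell in both lines (5.39% of all rows did, and 13.4% of rows with a mean above 8), and CDK4 and CDKN1B rose in both (5.76% and 21%). Counted by arrays, all miR-365a-3p arrays lay below all controls for 5 of the 10 genes in MDA-MB-231 cells (17% of all rows, 30.8% of rows with a mean above 8) and for 4 in SKOV3 cells (18.2% and 26.4%). They lay above for 4 genes in the MDA-MB-231 line (21% and 44.9%) and for 3 in SKOV3 cells (23.7% and 44.6%). These counts by arrays depend on the scaling. CCNE1 is among the 4, and on the values as deposited its miR-365a-3p arrays lay below all controls in both lines. CDK2 then lay below in MDA-MB-231 cells, and E2F1, among the 3, overlapped its controls in SKOV3 cells. The median log2 change of the 10 genes was -0.27 in MDA-MB-231 and 0.05 in SKOV3 cells, beside 0.01 over all rows in each line and 0.17 and 0.15 over rows with a mean above 8.

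**Figure D1:**
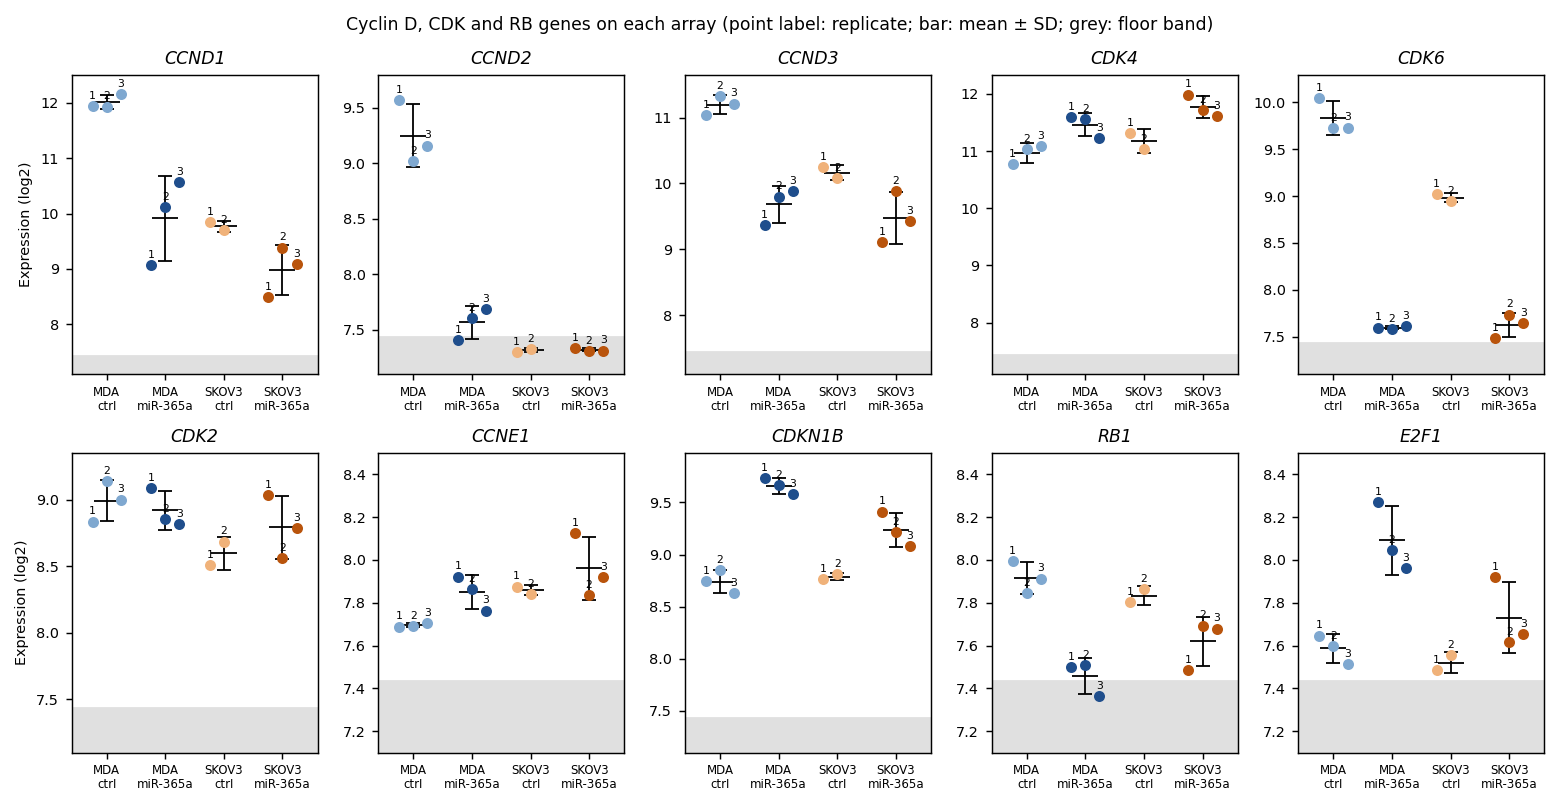
Normalized expression (log2, vertical axes that differ between panels) of each of the 10 genes on each array, by group, with points for arrays labelled by replicate number, bars for the mean ± SD and grey for the floor band up to 7.43. CDK6 lies between 7.48 and 7.74 on all miR-365a-3p arrays, below every control array, and CCND1 and CCND3 are lowest on the miR-365a-3p array numbered 1 of each cell line.

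CCND1 encodes cyclin D1. In MDA-MB-231 cells it read 11.94, 11.93 and 12.15 on the control arrays and 9.07, 10.11 and 10.57 on the miR-365a-3p arrays. The groups did not overlap, and the miR-365a-3p arrays spanned 1.50 where the controls spanned 0.22, with replicate 1 the lowest. The fall was 4.26-fold (log2 change -2.09, SE 0.36, adjusted p = 0.00258), and it passed the test under all 21 alternatives, with adjusted p up to 0.016. In SKOV3 cells CCND1 read 9.84 and 9.70 on the control arrays and 8.50, 9.38 and 9.08 on the miR-365a-3p arrays. Every miR-365a-3p array was below both controls, and the log2 change of -0.78 (SE 0.40, 95% confidence interval -1.69 to 0.13) did not pass the test (adjusted p = 0.289). The difference between the 2 responses, -1.31, did not pass either (adjusted p = 0.343). Without both miR-365a-3p arrays numbered 1 it was -1.11 and passed (adjusted p = 0.0433), an alternative chosen after the data were seen, and the MDA-MB-231 fall was then -1.63 (adjusted p = 3.39e-04).

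CCND2 encodes cyclin D2, a D-type cyclin with a more restricted range of tissues. It read 9.57, 9.02 and 9.16 on the MDA-MB-231 control arrays and 7.41, 7.60 and 7.69 on the miR-365a-3p arrays, which brought it next to the floor band. That was a 3.21-fold fall (log2 change -1.68, SE 0.13, adjusted p = 4.32e-05), which passed under all 21 alternatives. In SKOV3 cells CCND2 was in the floor band before and after the mimic, at 7.30 and 7.33 on the control arrays and 7.34, 7.31 and 7.31 on the miR-365a-3p arrays, so that a fall could not be measured there. The responses of the 2 lines differed by -1.69 (SE 0.19, adjusted p = 0.0029), one of 2 such calls among the 10 genes, beside 2.54% of all rows and 4.01% of those with a mean above 8.

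CCND3 encodes cyclin D3. Its values on the MDA-MB-231 control arrays were 11.04, 11.33 and 11.21, and on the miR-365a-3p arrays 9.37, 9.80 and 9.88. The groups were apart by more than their spread, with a 2.85-fold fall (log2 change -1.51, SE 0.20, adjusted p = 7.26e-04) under all 21 alternatives. In SKOV3 cells it read 10.25 and 10.08 on the control arrays and 9.11, 9.89 and 9.43 on the miR-365a-3p arrays. All 3 were below both controls, and the log2 change of -0.69 (SE 0.22, 95% confidence interval -1.20 to -0.18) missed the threshold at adjusted p = 0.0801. It passed without SKOV3 miR-365a-3p replicate 2 (-0.89, adjusted p = 0.0156) and with a filter on dim rows, an intensity trend or array weights (adjusted p = 0.0412, 0.0427 and 0.00646), and the difference between the lines, -0.82, did not pass (adjusted p = 0.272).

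The order in control cells of the D-type cyclins was the same for each gene, higher in MDA-MB-231 than in SKOV3 controls. CCND1 differed by 2.24 on the log2 scale (adjusted p = 0.00463), CCND2 by 1.94 (adjusted p = 3.29e-05) and CCND3 by 1.03 (adjusted p = 0.013). Over all rows 7.76% were higher in MDA-MB-231 controls and 8.34% lower, and of those with a mean above 8, 20% were higher and 19.2% lower. After the mimic, CCND1 in MDA-MB-231 cells (9.92 ± 0.77, SD, n = 3) overlapped its level in SKOV3 controls (9.77 ± 0.10, n = 2), and CCND3 in MDA-MB-231 cells (9.68 ± 0.28, n = 3) overlapped CCND3 in SKOV3 cells given the mimic (9.48 ± 0.39, n = 3). The CCND3 difference between the control groups was lost without SKOV3 control replicate 1 (adjusted p = 0.0621) or replicate 2 (adjusted p = 0.11).

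CDK6 encodes one of the 2 kinases that D-type cyclins activate. It read 10.04, 9.72 and 9.73 on the MDA-MB-231 control arrays and 7.60, 7.58 and 7.61 on the miR-365a-3p arrays. In SKOV3 cells it read 9.02 and 8.95 on the control arrays and 7.48, 7.74 and 7.64 on the miR-365a-3p arrays. In both lines all 3 miR-365a-3p arrays lay below the controls and just above the floor band. CDK6 fell 4.71-fold in MDA-MB-231 cells (log2 change -2.24, SE 0.09, adjusted p = 2.66e-06) and 2.57-fold in SKOV3 cells (log2 change -1.36, SE 0.10, adjusted p = 8.58e-05), and both calls held under all 21 alternatives. The fall was larger in MDA-MB-231 cells by 0.87 (SE 0.14, adjusted p = 0.0129), a call lost without SKOV3 control replicate 1 (adjusted p = 0.0547) or replicate 2 (adjusted p = 0.0749). The levels after the mimic, 7.59 ± 0.016 and 7.62 ± 0.13 (SD, n = 3 each), overlapped, and the controls differed by 0.85 (adjusted p = 5.00e-04), so that the size of the difference in response was that of the difference in control level. Closeness to the floor limits how large a fall can be read in either line.

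CDK4 encodes the other kinase of the D-type cyclins, and it moved the opposite way from CDK6. It read 10.77, 11.04 and 11.08 on the MDA-MB-231 control arrays and 11.59, 11.56 and 11.23 on the miR-365a-3p arrays, and 11.32 and 11.03 on the SKOV3 control arrays and 11.99, 11.71 and 11.61 on the miR-365a-3p arrays. In each line all 3 miR-365a-3p arrays lay above the controls. CDK4 rose by 0.50 (SE 0.14, adjusted p = 0.0297) and by 0.60 (SE 0.16, adjusted p = 0.036). Both were positive under every alternative, and the calls were lost with cyclic loess (adjusted p = 0.124 and 0.118) and when single arrays were left out, in MDA-MB-231 cells either of miR-365a-3p replicates 1 and 2 or of control replicates 1 and 2 (adjusted p up to 0.101), in SKOV3 cells either control, miR-365a-3p replicate 1 or 2, or replicate 2 of either MDA-MB-231 group (adjusted p up to 0.288). The 2 lines did not differ detectably in the response (-0.10, 95% confidence interval -0.58 to 0.38, adjusted p = 0.92).

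**Figure D2:**
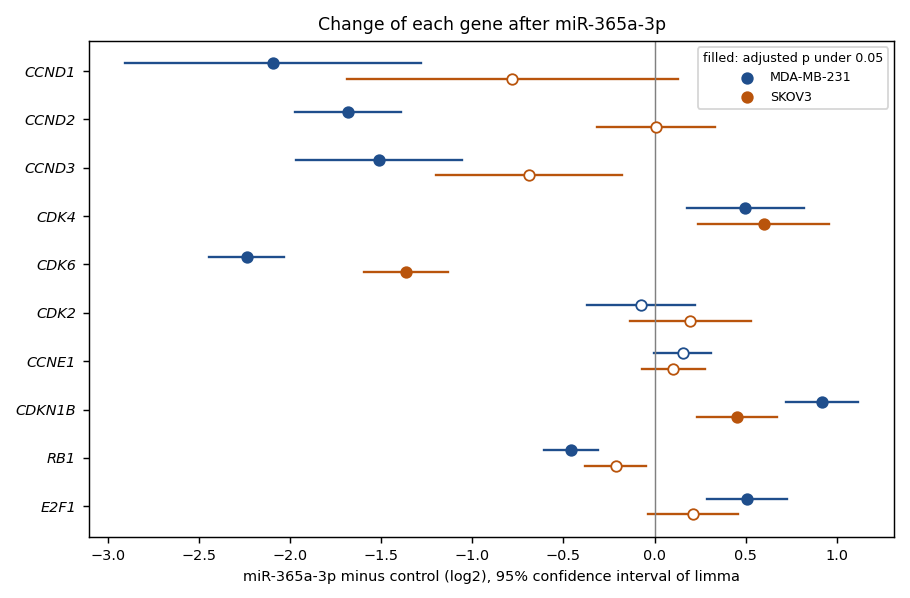
Change of each gene after miR-365a-3p (horizontal axis, log2, miR-365a-3p minus control) with the 95% confidence interval of limma, for MDA-MB-231 and SKOV3 cells, filled where the adjusted p was under 0.05. CDK6 fell in both lines, CDK4 and CDKN1B rose in both, and the intervals of CDK2 include 0 in both.

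CDKN1B, which encodes the inhibitor p27, rose in both lines. It read 8.74, 8.85 and 8.63 on the MDA-MB-231 control arrays and 9.74, 9.66 and 9.58 on the miR-365a-3p arrays, a 1.89-fold rise (log2 change 0.92, SE 0.09, adjusted p = 1.26e-04) under all 21 alternatives. In SKOV3 cells it read 8.76 and 8.81 on the control arrays and 9.41, 9.22 and 9.08 on the miR-365a-3p arrays, a 1.37-fold rise (log2 change 0.45, SE 0.10, adjusted p = 0.0147). The groups were apart in both lines, and the controls of the lines overlapped. In SKOV3 cells the call was lost on the values as deposited (0.25, adjusted p = 0.0921), with median centring (0.29, adjusted p = 0.0594) and without control replicate 1 (adjusted p = 0.107) or replicate 2 (adjusted p = 0.0848). The rise was 0.47 larger in MDA-MB-231 cells, which did not pass the test (adjusted p = 0.127) except without SKOV3 miR-365a-3p replicate 1 (0.55, adjusted p = 0.0304), with array weights (0.57, adjusted p = 0.0166) and without both arrays numbered 1 (0.50, adjusted p = 0.0483).

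CDK2, the kinase partner of cyclin E, did not pass the test in either line. It lay between 8.83 and 9.14 on the MDA-MB-231 control arrays and between 8.82 and 9.09 on the miR-365a-3p arrays, a log2 change of -0.07 (95% confidence interval -0.37 to 0.22, adjusted p = 0.795). In SKOV3 cells the change was 0.20 (95% confidence interval -0.14 to 0.53, adjusted p = 0.533). CDK2 depended on the scaling, since on the values as deposited it fell in MDA-MB-231 cells (-0.38, adjusted p = 0.0437), and its sign in SKOV3 cells turned (-0.06). CCNE1, which encodes cyclin E1, lay between 7.69 and 8.12 on all arrays, not far above the floor band. Its log2 change was 0.15 in MDA-MB-231 cells (adjusted p = 0.151) and 0.10 in SKOV3 cells (adjusted p = 0.533), and both signs turned on the values as deposited (-0.13 and -0.18) and with median centring (-0.10 and -0.15). No direction is therefore given for CCNE1. Without SKOV3 miR-365a-3p replicate 1 the MDA-MB-231 value was 0.16 and passed (adjusted p = 0.0244).

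RB1 read 7.99, 7.84 and 7.91 on the MDA-MB-231 control arrays and 7.50, 7.51 and 7.36 on the miR-365a-3p arrays, so that it reached the floor band on 1 of the 3. It fell 1.38-fold there (log2 change -0.46, SE 0.07, adjusted p = 0.00107) under all 21 alternatives. In SKOV3 cells RB1 read 7.80 and 7.86 on the control arrays and 7.49, 7.69 and 7.68 on the miR-365a-3p arrays. Again no array overlapped, and the change of -0.21 (95% confidence interval -0.38 to -0.05) missed the threshold (adjusted p = 0.0966). The scaling decided this call, which passed on the values as deposited (-0.46, adjusted p = 0.00133), with median centring (-0.42, adjusted p = 0.00244), with cyclic loess (-0.22, adjusted p = 0.0472) and with array weights (-0.17, adjusted p = 0.0372). The responses of the lines did not differ by the test (-0.25, adjusted p = 0.327).

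E2F1, the transcription factor released when the retinoblastoma protein is phosphorylated, read 7.65, 7.60 and 7.51 on the MDA-MB-231 control arrays and 8.27, 8.04 and 7.96 on the miR-365a-3p arrays. It rose 1.42-fold (log2 change 0.51, SE 0.10, adjusted p = 0.00463) under all 21 alternatives, and its change on the values as deposited was smaller, at 0.22 (adjusted p = 0.0247). In SKOV3 cells it read 7.48 and 7.56 on the control arrays and 7.92, 7.61 and 7.65 on the miR-365a-3p arrays, with a change of 0.21 that did not pass (adjusted p = 0.298). All 3 arrays were above both controls, which they overlapped on the values as deposited, and replicate 1 stood highest. The E2F1 promoter is shown because E2F factors bind it themselves, with letters of 2 E2F motif matches in capitals, in the 50 bases before the start of E2F1 at chr20:33686386-33686435 (RefSeq, GRCh38.p14, minus strand, written along the gene).
E2F1 promoter: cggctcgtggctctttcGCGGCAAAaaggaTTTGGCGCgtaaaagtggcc
The motifs searched were TTTGGCGC, TTTCCCGC, TTTCGCGC and TTTGCCGC on both strands, and the first of the matches shown is the reverse complement of TTTGCCGC. They start 33 and 20 bases before the gene's start. The search covered the whole promoter window of each gene, which for E2F1 is chr20:33686336-33686635 and longer than the 50 bases shown. Of 27305 such windows, 908 (3.33%) held at least 1 match. The windows of CCND3, CDK4, CDK6, CCNE1, CDKN1B and RB1 held none of these letters. A match is a description of letters only.

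**Figure D3:**
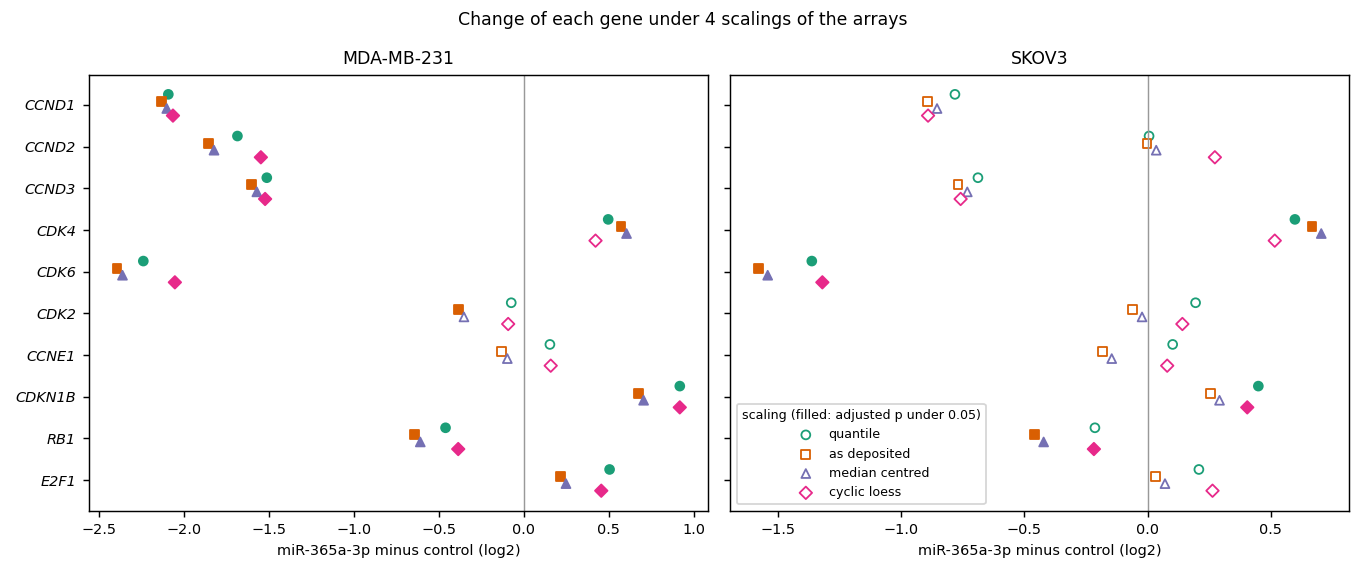
Change of each gene (horizontal axis, log2, mimic minus control) in both lines under 4 scalings of the arrays, quantile, as deposited, median centred and cyclic loess, filled where the adjusted p was under 0.05. The D-type cyclins, CDK6, CDKN1B, RB1 and E2F1 kept their sign and call in MDA-MB-231 cells, and CCNE1 changed sign in both lines.

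Among 68 other genes of G1 control in 5 lists, the named genes include E2F partners and the kinase complex that activates CDKs. The background for each list's counts is the share of rows given above, in MDA-MB-231 cells 11.7% fell and 14.4% rose (26.2% and 39% of rows with a mean above 8), and in SKOV3 cells 7.11% and 7.25% (15.3% and 23.4%). Of 16 RB relatives and E2F partners, 7 fell and 4 rose in MDA-MB-231 cells (list median -0.15), and 4 fell and 2 rose in SKOV3 cells (list median -0.07). TFDP1, a dimer partner with which E2F1 binds DNA, fell in both lines, by a log2 change of -1.57 (adjusted p = 2.39e-05) and -1.07 (adjusted p = 5.87e-04). E2F3, another activator, fell by a log2 change of -1.16 (adjusted p = 3.93e-04) and -0.68 (adjusted p = 0.0186), the second call being lost without either SKOV3 control or without SKOV3 miR-365a-3p replicate 1 or 3. E2F2, also an activator, fell in both lines (-0.52, adjusted p = 3.85e-04, and -0.52, adjusted p = 0.00137), and E2F7, a repressor of E2F targets, fell in MDA-MB-231 cells (-1.50, adjusted p = 1.02e-05), and these calls held under every alternative. After the mimic E2F2 averaged 7.40 in MDA-MB-231 and 7.47 in SKOV3 cells, in and next to the floor band, which limits how large a fall can be read. E2F5, a partner of the RB relatives (0.84, adjusted p = 0.00172), LIN9, a subunit of the complex that works with them (0.77, adjusted p = 0.0134), and TFDP2 (0.68, adjusted p = 1.09e-04) rose in MDA-MB-231 cells, LIN9 without a call on the values as deposited or without control replicate 3. TFDP2 (0.34, adjusted p = 0.012) rose in SKOV3 cells too, and E2F6, a repressor, rose in both lines (0.40, adjusted p = 0.00142, and 0.32, adjusted p = 0.0146). E2F6 did not pass in either line on the values as deposited (0.02 and 0.03) or with median centring. In SKOV3 cells neither gene passed on the values as deposited, where 7 genes of the list fell and none rose. Without SKOV3 control replicate 1 none rose in SKOV3 cells, and without replicate 2 the count was 1.

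Of 12 genes of CDK activation and of p27 or cyclin E turnover, 4 fell and 3 rose in MDA-MB-231 cells (list median 0.03), and 2 fell and 3 rose in SKOV3 cells (list median 0.14). The 3 that rose are the subunits of the CDK-activating kinase. MNAT1, its assembly factor, averaged 8.85 ± 0.22 in MDA-MB-231 controls and 10.89 ± 0.16 after the mimic (SD, n = 3 each), a log2 change of 2.04 (adjusted p = 1.53e-04), and in SKOV3 cells the change was 1.74 (adjusted p = 0.00124). CDK7, its kinase, rose by 1.15 (adjusted p = 0.00146) and 0.80 (adjusted p = 0.0272), and CCNH, its cyclin, by 0.97 (adjusted p = 0.00105) and 0.61 (adjusted p = 0.0313). The SKOV3 calls of CDK7 and CCNH were lost in 9 and 11 of 21 alternatives, among them cyclic loess (adjusted p = 0.0511 and 0.0922) and, for CCNH, the values as deposited (0.43, adjusted p = 0.168), and without SKOV3 miR-365a-3p replicate 1 or 3 or control replicate 2 MNAT1 alone was left, as the count of 1 in each case. WEE1, a kinase that restrains CDKs, fell in both lines (-0.88, adjusted p = 2.98e-04, and -0.82, adjusted p = 0.00155), as did its relative PKMYT1 by a smaller amount (-0.24, adjusted p = 0.00104, and -0.15, adjusted p = 0.028). The SKOV3 call of PKMYT1 was lost without either SKOV3 control or without miR-365a-3p replicate 1. PKMYT1 averaged 7.39 in MDA-MB-231 and 7.40 in SKOV3 cells after the mimic, in the floor band. FBXW7, which marks cyclin E for breakdown, fell in MDA-MB-231 cells (-0.16, adjusted p = 0.00362), and in SKOV3 cells its change was -0.03 (adjusted p = 0.727) but passed on the values as deposited (-0.18, adjusted p = 0.00403) and with median centring. In MDA-MB-231 cells FBXW7 averaged 7.63 in controls and 7.47 after the mimic, next to the floor band, which limits how large a fall can be read.

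Of 7 other CDK inhibitors, 2 fell and 2 rose in MDA-MB-231 cells, and 1 rose in SKOV3 cells (list medians 0.005 and 0.02). Those counts are 28.6% each way in MDA-MB-231 cells and 14.3% that rose in SKOV3 cells. Over all rows 11.7% fell and 14.4% rose in MDA-MB-231 cells, and 7.25% rose in SKOV3 cells. Among rows with a mean above 8 these shares were 26.2%, 39% and 23.4%. CDKN1C, CDKN2A, CDKN2B and CDKN2D averaged below 8 in every group, so those rows are not a matched background for the list. CDKN1A, which encodes p21, a relative of p27, fell in MDA-MB-231 cells (-0.65, adjusted p = 4.88e-04). In SKOV3 cells its change was -0.22 (adjusted p = 0.171), and it passed on the values as deposited (-0.45, adjusted p = 0.00249), with median centring (-0.41, adjusted p = 0.00328), with each line alone (adjusted p = 0.0325), with array weights (adjusted p = 0.0357) and without MDA-MB-231 control replicate 2. On the first 2 of these 1 gene of the list fell in SKOV3 cells and none rose. CDKN2C, which encodes the CDK4 and CDK6 inhibitor p18, rose in both lines, by 0.88 in MDA-MB-231 cells (adjusted p = 8.59e-05) and by 0.34 in SKOV3 cells (adjusted p = 0.0287), the latter without a call on the values as deposited and without either SKOV3 control. None of the 7 fell in SKOV3 cells by limma's adjusted p (1 did at an unadjusted p under 0.05), and without SKOV3 miR-365a-3p replicate 2 the count that rose was 2. In each line 2 of the 7 lay in the floor band in both groups, so that a fall of these could not be measured. CDKN2D, which encodes p19, another inhibitor of these kinases, fell (-0.24, adjusted p = 0.00327) and CDKN1C, which encodes p57, rose (0.38, adjusted p = 0.0103) in MDA-MB-231 cells, the second without a call on the values as deposited.

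Of 8 genes of cyclin D turnover, 2 fell in MDA-MB-231 cells, and 2 fell and 1 rose in SKOV3 cells (list medians 0.01 and -0.09). GSK3B, a kinase that marks cyclin D1 for export and breakdown, fell in both lines (-0.87, adjusted p = 6.38e-05, and -0.58, adjusted p = 0.00179) under every alternative. FBXO4, a cyclin D1 ubiquitin ligase subunit, rose in SKOV3 cells (0.69, adjusted p = 0.0191) and its cofactor CRYAB fell there (-0.38, adjusted p = 0.00378), FBXO4 without a call when either SKOV3 control was left out. The fall of the ligase scaffold CUL4A in MDA-MB-231 cells (-0.56, adjusted p = 0.0485) was lost in 11 of 21 alternatives. The list's count of 2 in MDA-MB-231 cells became 1 without any 1 of 7 arrays, miR-365a-3p replicates 1 and 2 and control replicates 1 and 3 of that line and SKOV3 miR-365a-3p replicate 3 and both SKOV3 controls, and 3 without SKOV3 miR-365a-3p replicate 1. None rose in MDA-MB-231 cells by limma's adjusted p, nor at an unadjusted p under 0.05 (0 of 8). That count was 1 with cyclic loess, with each line alone, without SKOV3 miR-365a-3p replicate 1 and without both miR-365a-3p arrays numbered 1. FBXO4 changed by 0.30 in MDA-MB-231 cells (adjusted p = 0.17), and its line difference did not pass (adjusted p = 0.515). In both groups of the MDA-MB-231 line 3 of the 8 lay in the floor band, as did 2 in SKOV3 cells.

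Of 25 E2F targets of S phase entry, 13 fell and 1 rose in MDA-MB-231 cells (list median -0.44), and none fell and 3 rose in SKOV3 cells (list median -0.01). That is 52% that fell in MDA-MB-231 cells, beside 11.7% of all rows and 26.2% of those with a mean above 8, and 12% that rose in SKOV3 cells, beside 7.25% and 23.4%. Those that fell include 7 genes whose symbols begin with MCM. Of these MCM10, a replication initiation factor outside the MCM helicase family, fell most (-1.36, adjusted p = 1.49e-04). MCM6, a subunit of the replicative helicase, fell by a log2 change of -1.31 (adjusted p = 0.0284). UHRF1, which keeps DNA methylation through replication, fell by a log2 change of -1.17 (adjusted p = 0.00121). RFC3, a subunit of the clamp loader, rose in both lines (0.66, adjusted p = 2.39e-05, and 0.63, adjusted p = 1.08e-04) under every alternative, and PCNA, the clamp (0.46, adjusted p = 0.017), and CDK1 (deposited as CDC2, 0.74, adjusted p = 0.0283) rose in SKOV3 cells, PCNA without a call on the values as deposited (0.40, adjusted p = 0.0831) and CDK1 without one with cyclic loess (0.62, adjusted p = 0.0794). The MDA-MB-231 count of 13 became 8 without miR-365a-3p replicate 1 or 2 of that line, and the call of MCM6 was lost without any 1 of 5 of the 6 MDA-MB-231 arrays. In SKOV3 cells 1 gene fell at an unadjusted p of limma under 0.05, and 1 by the adjusted p without SKOV3 miR-365a-3p replicate 2 or MDA-MB-231 control replicate 3. The count that fell there was also 1 with cyclic loess, a filter on dim rows, an intensity trend or a replicate block shared by the lines. With median centring or array weights it was 2. The SKOV3 count of 3 that rose became 1 without either SKOV3 control, and on the values as deposited 4 fell and 2 rose. The test of the difference between the lines passed for 2 of the 25 genes, so the 2 counts do not show that the lists differ.

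**Figure D4:**
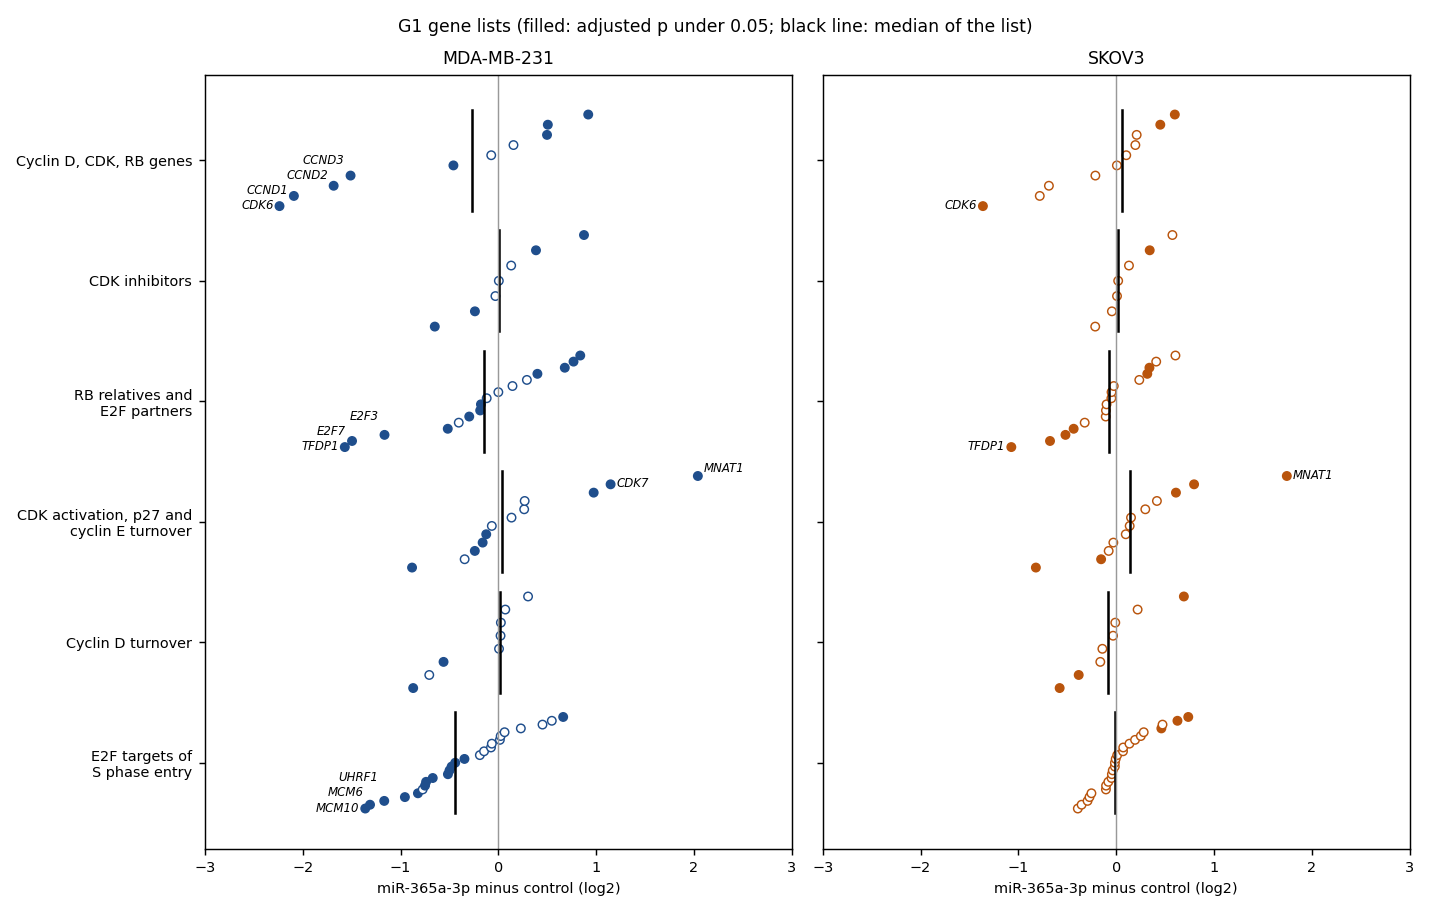
Change after miR-365a-3p (horizontal axis, log2, miR-365a-3p minus control) of every gene in the 10 and in the 5 other lists, 1 point for each gene, filled where the adjusted p was under 0.05, with a black line at the list's median and names beside changes beyond 1. The E2F targets of S phase entry have a median of -0.44 in MDA-MB-231 cells and of -0.01 in SKOV3 cells.

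By Pearson's r over the 11 arrays, the rows most like CCND1 among 6852 rows with a mean above 8 were PSMD2, a proteasome subunit (r = 0.987), MMS19 (r = 0.986), GEMIN4 (r = 0.986), SERINC3 (r = 0.986) and PRNP, the prion protein gene (r = 0.985). These are descriptions over arrays that share the groups and the cell lines. Each of the 5 fell in MDA-MB-231 cells, by log2 changes from -1.71 (GEMIN4) to -0.87 (SERINC3), and did not pass in SKOV3 cells, at -0.63 (PSMD2) to -0.28 (SERINC3). Since the 5 were picked by their r with CCND1 over the same arrays, their likeness to it in these calls follows from the choice. Of the other 9 cyclin D, CDK and RB genes, the 5 with a mean above 8 had r with CCND1 of 0.95 for CCND3, 0.82 for CDK6, 0.26 for CDK2, -0.56 for CDKN1B and -0.84 for CDK4.

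The miR-365a-3p array numbered 1 had the lowest upper quartile of deposited values in its cell line, 7.56 in MDA-MB-231 and 7.67 in SKOV3 cells. After quantile normalization it was also, in both lines, the lowest of the miR-365a-3p arrays for CCND1 and CCND3 and the highest for CDK4, CDK2, CCNE1, CDKN1B and E2F1. On the values as deposited the same held except for CCNE1 and CDKN1B in MDA-MB-231 cells, which were highest on replicate 2. The part of these arrays in the results was measured by leaving both out, an alternative chosen after the data were seen. The 5 MDA-MB-231 genes that fell still numbered 5, those that rose were 2 in place of 3, with CDK4 at 0.43 (adjusted p = 0.0657), and in SKOV3 cells 1 fell and 1 rose, with CDK4 at 0.48 (adjusted p = 0.0864).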

How the data were processed

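The authors amplified RNA to biotin-labelled cRNA, hybridized it to Illumina BeadChips and quantile normalized the data with lumi, and they deposited 1 log2 value for each of 31325 gene symbols and array. The transformation before normalization, any background correction and the rule for several probes of a gene are not given in the sources used here. The deposited columns did not share 1 distribution, so they were quantile normalized again across the 11 arrays (limma 3.58.1, R 4.3.3). All rows were fitted by lmFit and eBayes on the 4 group means. The contrasts were mimic minus control within MDA-MB-231 and within SKOV3 cells, their difference, and the 2 control groups, and p-values were adjusted by Benjamini-Hochberg over all rows, with a threshold of 0.05. The fit was tested on simulated data. The number of arrays limits the precision, and the smallest p of an exact test on the 6 MDA-MB-231 arrays is 0.1. Alternatives were other scalings, fits, filters and left-out arrays. Genes named are the 10, up to 3 called genes with the largest rise and 3 with the largest fall of each other list and line, and the 5 rows most like CCND1. The genes and lists were chosen with earlier results of these data known. Sequences are from RefSeq tables of GRCh38.p14, in which CCND1, CCND2 and CDK2 have no promoter entry.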

Additional observations from a re-analysis of the deposited data

Results flagged for a closer look

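In 6 genes of the 10 and the 5 lists the response to miR-365a-3p differed between MDA-MB-231 and SKOV3 cells by the interaction test of limma. The difference, MDA-MB-231 minus SKOV3 on the log2 scale, was -1.69 for CCND2 (adjusted p = 0.0029), which lay in the floor band in SKOV3 cells, and -0.87 for CDK6 (adjusted p = 0.0129). It was -1.40 for E2F7 (adjusted p = 0.00108), which averaged 9.46 in MDA-MB-231 controls and 7.71 in SKOV3 controls, and this call held under each of the 20 alternatives that give it. In SKOV3 cells E2F7 averaged 7.61 after the mimic, and closeness to the floor limits how large a fall can be read there. Its SKOV3 change of -0.10 did not pass (adjusted p = 0.652). That change passed on the values as deposited (-0.33, adjusted p = 0.00357) and with median centring. For CRYAB, a cofactor of cyclin D1 breakdown, the difference between the lines was 0.41 (adjusted p = 0.0408, lost in 11 of 20 alternatives). CRYAB lay in the floor band in MDA-MB-231 cells (7.29 in controls, 7.31 after the mimic), so that a fall could not be measured there. For MCM10 the difference was -1.07 (adjusted p = 0.0288, lost in 9 of 20), and MCM10 averaged 7.63 after the mimic in both lines. For TYMS, which encodes thymidylate synthase, it was -0.88 (adjusted p = 0.0459, lost in 15 of 20), with a change of -0.75 in MDA-MB-231 cells (adjusted p = 0.00213).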

How the results depend on the processing

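The falls of CCND1, CCND2, CCND3, CDK6 and RB1 and the rises of CDKN1B and E2F1 in MDA-MB-231 cells, and that of CDK6 in SKOV3 cells, held under all 21 alternatives. On the values as deposited, 71.2% of the called rows fell in MDA-MB-231 and 78.6% in SKOV3 cells, and with median centring 59.1% and 67.7%, against 44.8% and 49.5% with quantile normalization. Signs turned on the values as deposited for CCNE1 (-0.128 in MDA-MB-231 and -0.183 in SKOV3 cells), CDK2 (-0.060) and CCND2 (-0.0022) in SKOV3 cells and RB1 between the controls (-0.0071), and with median centring for CCNE1 (-0.096 and -0.145) and CDK2 in SKOV3 cells (-0.022). With single arrays left out signs turned for CCND2 in SKOV3 cells (-0.0059 to 0.0186, and -0.0025 without both arrays numbered 1), CDK2 in MDA-MB-231 cells (-0.154 to 0.00059), CDKN1B between the controls (-0.102 to 0.0091) and the line difference of CDK4 (-0.250 to 0.042) and CCNE1 (-0.0092 to 0.137), none of them a call, and the cause was not tested. Replicate numbers were not taken to pair the arrays of a cell line, since deviations of same-numbered arrays from their group means correlated at -0.12 to 0.23 over 6853 rows. With the replicate block, 123 rows passed for the line difference in place of 796 and 2278 between the controls in place of 5043, and no other call of the 10 genes changed than the losses of CDK4 in both lines, CCND2 (adjusted p = 0.113) and CDK6 (adjusted p = 0.144) in the line difference and CCND1 and CCND3 between the controls. Across the lines, same-numbered miR-365a-3p arrays deviated together (r = 0.695, 0.311 and 0.344), and for the controls r was 0.124 and -0.130. With the replicate number as a block shared by the lines, chosen after the data were seen, no call of the 10 genes within a line changed, CCND2 and CDK6 kept their line difference (adjusted p = 0.0175 and 0.049), 537 rows passed for it, and CDKN1B between the controls turned sign (0.0115). In SKOV3 cells 4498 rows passed, 2825 with each line alone, 7213 with array weights and 1769 to 5021 with 1 array left out. The line difference passed in 1887 rows with array weights, 1321 without both arrays numbered 1 and 313 to 1227 with 1 array left out, and the control difference in 2989 to 5698. Of the 10 genes in SKOV3 cells, 2 fell on the values as deposited, with median centring, cyclic loess, rows above the median and an intensity trend, 3 with array weights and 1 to 2 with 1 array left out. Of the same genes, 1 rose on the values as deposited, with median centring, cyclic loess, the replicate block and without both arrays numbered 1, none (0) with each line alone and 0 to 2 with 1 array left out. In MDA-MB-231 cells 2 to 4 rose with 1 array left out. Signal near the floor limits CCND2, RB1, CCNE1, E2F1 and CDK6.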
